A study of Mus musculus with 24 samples.

Results

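The genes Lin28a, Lin28b, Trim71 and L1td1, which encode RNA-binding regulators of pluripotent and embryonic cells, were followed as 4 rows of a table of 23283 mouse genes. They were taken by name, with no threshold on their levels, although earlier results of these data were known when they were chosen. The table held 24 RNA libraries of 6 groups, each made from the cytosolic, oligo-dT primed and amplified RNA of 1000 cells per well. The 4 iPS libraries came from factor-independent induced pluripotent stem cells, sorted for an Oct4:GFP reporter and grown without doxycycline in embryonic stem cell medium with LIF. The 4 fast MEF and 4 slow MEF libraries came from mouse embryonic fibroblasts given 2 ug/ml doxycycline for 6 days to switch on the Yamanaka factors Sox2, Klf4, Myc and Oct4 (gene Pou5f1). Those cells grew in the same medium with LIF and were sorted by how far they had diluted the division dye CFSE in 48 hours. Another 4 bulk MEF libraries came from untreated, unsorted fibroblasts kept in DMEM with 10% serum. Granulocyte monocyte progenitors (GMP), committed blood progenitors, were grown in serum-free medium with cytokines that included SCF, IL3 and Flt3L. They gave 5 fast GMP and 3 slow GMP libraries after 24 hours of dye dilution. No label states whether replicates were separate animals or cultures, so every p-value measures the spread between these libraries and that spread may be technical.

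Lin28a and Lin28b are cold-shock and zinc-knuckle proteins that hold precursors of the let-7 microRNAs, bind a GGAG motif in their terminal loop and keep Dicer from maturing them. The terminal uridylyltransferases Zcchc11 and Zcchc6 then tail the held precursor, and the exonuclease Dis3l2 degrades it. Mature let-7 in turn represses mRNAs that carry its sites, among them those of Lin28a, Lin28b and Trim71, so both sides of this switch oppose each other. Trim71, known from the worm Caenorhabditis elegans as lin-41, is an RNA-binding NHL protein that silences mRNAs such as that of the cell cycle inhibitor Cdkn1a. L1td1 descends from the first open reading frame of a LINE-1 retrotransposon, and in human embryonic stem cells it has been found in complexes with LIN28. LIN28 is also one of the factors that, added with others, have been used to reprogram human fibroblasts. None of the 4 genes belongs to the Yamanaka set, so their counts are not those of the induced transgenes.

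The letters of this switch are shown first, because 3 of the 4 genes carry let-7 sites and 1 does not. Mature miRNA and precursor sequences are those of RefSeq on GRCm38.p6, written 5′ to 3′ with the seed (bases 2 to 8) in capitals. The table gives the same let-7 seed to 9 names, let-7a to let-7g, let-7i and miR-98.
let-7a: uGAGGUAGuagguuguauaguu
let-7g: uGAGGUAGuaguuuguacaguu
miR-125b: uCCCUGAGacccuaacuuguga
Of the 12 let-7 family precursors, 9 hold GGAG downstream of the arm that gives the mature strand, and those of miR-98, let-7b and the second let-7c locus do not. The let-7g precursor, at chr9:106178840-106178927 on the plus strand, shows in capitals the motif that Lin28 proteins bind.
let-7g precursor: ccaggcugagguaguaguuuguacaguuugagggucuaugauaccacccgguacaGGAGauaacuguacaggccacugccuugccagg

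Sites were searched in the sense strand of each 3′ UTR of the longest coding transcript in GENCODE M21 (GRCm38), as CTACCTC for let-7 and CTCAGGG for miR-125. The end of the first motif can run into the start of the second, but no pair overlapped in these 4 UTRs. Lin28a (chromosome 4, minus strand) held 2 let-7 motifs in a 3′ UTR of 2775 bases. Lin28b (chromosome 10, minus strand) held 4 in 4445 bases, and Trim71 (chromosome 9, minus strand) held 4 in 5512 bases. L1td1 (chromosome 4, plus strand) held none in a 3′ UTR of 364 bases, a length at which 2.83% of UTRs hold one. The motif was present in 8.8% of 20921 mouse 3′ UTRs, and in 14.4%, 23.9% and 29.5% of those within 20% of the length of the Lin28a, Lin28b and Trim71 UTRs. As many motifs as these genes hold stood in 2.16%, 0.24% and 0.506% of UTRs of those lengths. A motif of miR-125, the mammalian relative of worm lin-4, stood once each in the Lin28a, Lin28b and Trim71 UTRs and not in that of L1td1. It was present in 13.0% of all UTRs, and in 25.1%, 32.1%, 37.3% and 4.27% of those near the Lin28a, Lin28b, Trim71 and L1td1 UTRs in length. The motif is in capitals below, and each name gives its distance in bases after the stop codon.
Lin28a let-7 site, 909: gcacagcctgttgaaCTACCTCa
Lin28a let-7 site, 1547: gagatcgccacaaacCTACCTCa
Lin28b let-7 site, 36: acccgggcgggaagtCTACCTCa
Trim71 let-7 site, 166: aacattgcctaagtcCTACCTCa
Trim71 let-7 site, 262: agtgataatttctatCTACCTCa
Trim71 let-7 site, 3591: tttagtatggattttCTACCTCa
Trim71 let-7 site, 3617: ttggcaaaaagttgtCTACCTCa
Trim71 miR-125 site, 79: caaagaagaaatcgtCTCAGGGa
All 6 let-7 motifs of Lin28a and Trim71 were followed by A, which lengthens the match to the class of site known for the strongest repression, and 1 of the 4 in Lin28b was. These letters describe the reference transcripts, and their use in these cells was not measured. MicroRNA themselves were hardly sampled, since the libraries were primed on poly(A). The 12 rows for let-7 precursors held 137 counts in all, in 10 of the 24 libraries, so let-7 levels were not available here.

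Library totals ran from 2098846 to 4411526 counts in the 8 GMP libraries and from 4937453 to 18648132 in the other 16. Levels are given as CPM, counts scaled to a common library size, and a single count is worth more CPM in GMP. The labelled cell types showed their markers. Summed over 10 genes, pluripotent markers such as Nanog and Esrrb reached 2876 to 3677 CPM in iPS, against 44.9 to 113 CPM in fast MEF, 2.40 to 30.4 CPM in slow MEF and 0.794 to 24.4 CPM in bulk MEF. Of these 10 genes, 2 had enough reads for the edgeR test of fast against slow MEF described below. Sall4 was higher in fast MEF (log2 2.97, adjusted p = 0.0151), at 63.4 CPM on the scale of that comparison. Fgf4 was not called (log2 -1.04), and Nanog averaged 1.43 CPM in fast MEF. Fibroblast markers summed to 1911 to 4841 CPM in fast MEF, against 40960 to 79790 CPM in slow MEF. Epithelial markers such as Krt14 and Cdh1 summed to 8719 to 14150 CPM in fast MEF, against 40.1 to 591.6 CPM in slow MEF. GMP markers summed to at least 5181 CPM in each GMP library and to at most 24.8 CPM in any other. The gates of the induced culture thus differed in fibroblast and epithelial markers as well as in dye dilution. The part of these differences in the results below was not tested.

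Lin28a was high in iPS cells, present at a lower and variable level in fast MEF, and close to the limit of detection elsewhere. Its levels in the 4 iPS libraries were 113, 132, 50.95 and 99.99 CPM, with a mean of 98.9 ± 34.5 CPM (SD, n = 4). The fast MEF libraries held 32.0, 11.9, 4.50 and 7.75 CPM (mean 14.0 ± 12.4 CPM, n = 4), below every iPS library and above every library of the other 4 groups. In raw counts, slow MEF libraries held 22, 6, 0 and 5 reads and bulk MEF libraries 0, 0, 4 and 3. The fast GMP libraries held 14, 0, 0, 0 and 2 reads and the slow GMP libraries 0, 9 and 0, so that in GMP single libraries carried nearly all reads. Because whole populations were lysed, fewer cells with Lin28a and less Lin28a per cell cannot be told apart.

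The differences in Lin28a were tested with edgeR's quasi-likelihood test, adjusted over all genes tested at a threshold of 0.05. Lin28a was higher in iPS than in bulk MEF by 9.02 ± 0.86 on the log2 scale (SE, adjusted p = 3.57e-05), a comparison in which 24.1% of 11736 genes were called higher and 23.3% lower. It rose in fast MEF over bulk MEF by 6.11 ± 1.12 (adjusted p = 0.00205), where 16.5% of 11335 genes rose and 18.4% fell. Both results rest on bulk MEF libraries with 0 to 4 reads. Between the gates of the induced culture, Lin28a was higher in fast MEF than in slow MEF by 3.92 ± 1.08 (adjusted p = 0.0188), where 14.4% of 11742 genes were called higher and 17.3% lower. Fast MEF had still not reached the iPS level, which was higher by 2.82 ± 0.58 (adjusted p = 0.00401), where 18.8% of 11882 genes were higher and 19.7% lower in iPS. The difference between the gates turned on single libraries: it was 3.12 (adjusted p = 0.0708) without fast MEF replicate 1, 3.73 (adjusted p = 0.0542) without slow MEF replicate 2 and 5.19 without slow MEF replicate 1. Without fast MEF replicate 1 the value over bulk MEF was 5.31 and iPS over fast MEF 3.60, and without bulk MEF replicate 3 iPS over bulk MEF was 9.79 and fast MEF over bulk MEF 6.86.

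Lin28b, the paralog that serves the same block on let-7 and is best known from fetal tissues, had the opposite order in iPS and fast MEF. The iPS libraries held 1.07, 0.70, 2.00 and 1.68 CPM (mean 1.36 ± 0.588 CPM, n = 4). The fast MEF libraries held 5.53, 9.60, 5.02 and 4.07 CPM (mean 6.06 ± 2.44 CPM, n = 4), so the lowest fast MEF library stood above the highest iPS library. Slow MEF libraries held 3.21, 1.55, 0.76 and 1.37 CPM, below fast MEF and overlapping iPS. In bulk MEF 4, 1, 2 and 0 reads were counted, below all libraries of iPS and of both induced gates. Lin28b was lower in iPS than in fast MEF by 2.13 ± 0.61 on the log2 scale (log2 fold change -2.13, edgeR adjusted p = 0.0192), and higher in fast MEF than in bulk MEF by 4.97 ± 0.92 (adjusted p = 0.00204). The difference between fast and slow MEF was 1.68 ± 0.67 and did not pass (adjusted p = 0.0799), but did so without slow MEF replicate 1 (2.16, adjusted p = 0.049). The iPS call was lost without iPS replicate 2 (-1.92, adjusted p = 0.0538), without fast MEF replicate 2 (-1.83, adjusted p = 0.0698) and with no filter on low counts (-2.12, adjusted p = 0.0526). Without bulk MEF replicate 1, fast MEF over bulk MEF was 5.68.

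Too few reads kept Lin28b out of the test of iPS against bulk MEF. With no filter it was higher in iPS by 2.89 ± 1.24 on the log2 scale, which did not pass (edgeR adjusted p = 0.0942). Per kilobase of the longest transcript, Lin28a stood at 28.2 and Lin28b at 0.252 CPM per kb in iPS, against 4.01 and 1.12 CPM per kb in fast MEF. By this mean Lin28a was the more abundant paralog in both groups, by a much smaller margin in fast MEF. In fast MEF replicate 3 Lin28b had more reads than Lin28a, 29 against 26. With priming on poly(A), reads need not scale with transcript length, and coverage was not checked. Within a library, the log2 ratio of Lin28a to Lin28b counts averaged 0.90 in fast MEF and 6.15 in iPS, a difference of -5.26 (exact permutation test, two-sided, p = 0.0286, adjusted p = 0.0429 over 6 ratios). That p is the smallest that 4 libraries against 4 allow, and the ratios were chosen after the values had been seen. All iPS libraries lay above all fast MEF libraries for Lin28a and below them for Lin28b. The ratio therefore had to separate the groups, and its test adds nothing to those levels. In GMP Lin28b reads were uneven: 20, 1, 10, 0 and 3 in fast GMP, against 4, 0 and 62 in slow GMP. The slow GMP mean of 9.87 ± 15.9 CPM (n = 3), nominally the highest of all groups, came almost wholly from replicate 3 with 28.2 CPM.

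**Figure D1:**
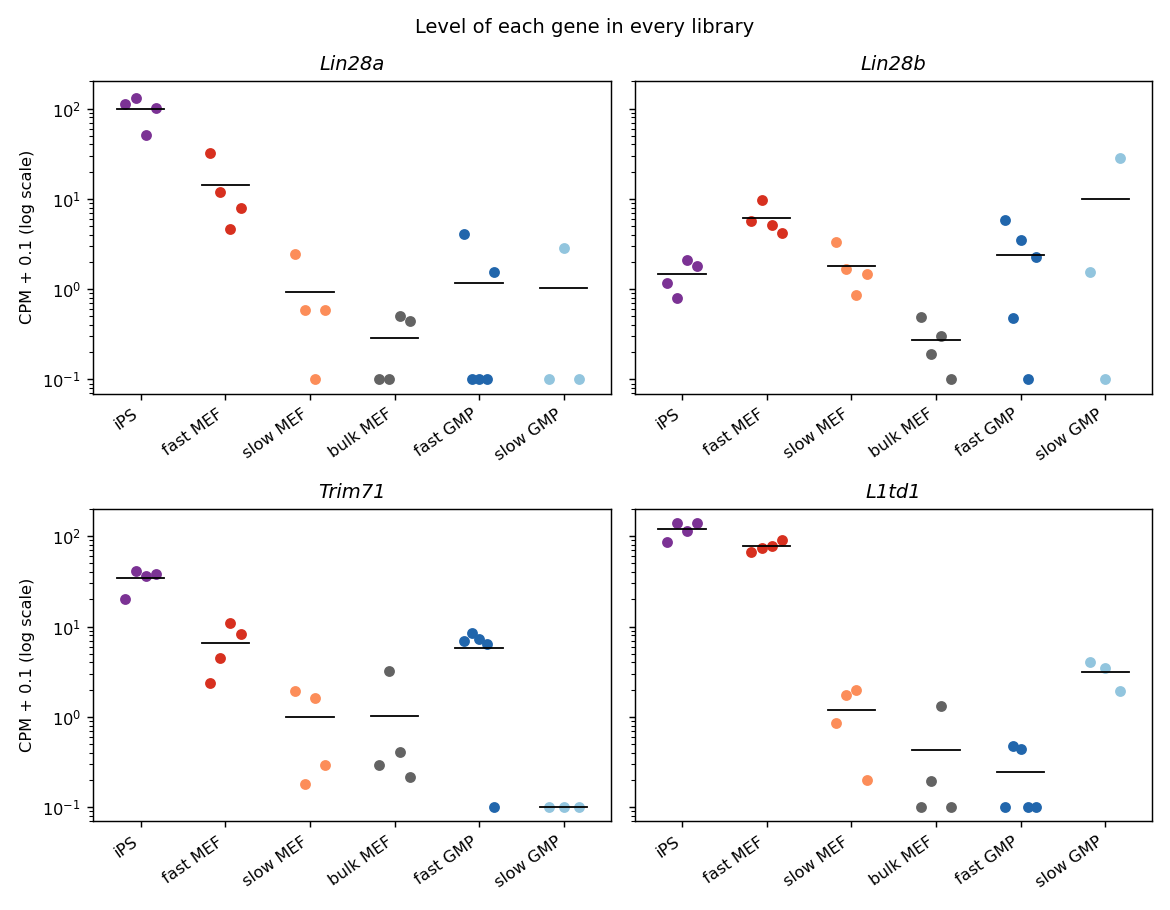
Level of Lin28a, Lin28b, Trim71 and L1td1 in each of the 24 libraries, in CPM with 0.1 added, on a log axis. Points are libraries, bars are group means plus 0.1, and a point at 0.1 has no count. L1td1 in fast MEF lies below iPS on average but closer to it than the other genes do, and Lin28b is higher in fast MEF than in iPS. Trim71 is the one of the 4 genes with similar levels in 4 of the 5 fast GMP libraries.

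Trim71 was highest in iPS, intermediate in fast MEF, and, apart from MEF and iPS, was found in fast GMP. The iPS libraries held 20.0, 41.4, 36.3 and 38.5 CPM (mean 34.0 ± 9.62 CPM, n = 4). The fast MEF libraries held 2.27, 4.40, 10.7 and 8.15 CPM (mean 6.39 ± 3.78 CPM, n = 4), all below iPS and all above slow MEF, which held 1.82, 0.08, 1.51 and 0.20 CPM. Bulk MEF libraries held 2, 33, 3 and 1 reads. The second of them, at 3.09 CPM, lay above 1 of the fast MEF libraries, and the other 3 held at most 0.30 CPM. Trim71 was higher in iPS than in bulk MEF by 5.18 ± 0.96 on the log2 scale (edgeR adjusted p = 0.00162) and higher in iPS than in fast MEF by 2.39 ± 0.53 (adjusted p = 0.00601). Fast MEF over slow MEF came to 2.73 ± 1.01 (adjusted p = 0.0627) and fast MEF over bulk MEF to 2.75 ± 1.06 (adjusted p = 0.0675), neither past the threshold. Bulk MEF replicate 2 carried weight here: without it, fast MEF over bulk MEF was 4.83 (adjusted p = 0.00509) and iPS over bulk MEF 7.28.

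In the blood progenitors, Trim71 was counted in 4 of 5 fast GMP libraries, with 24, 22, 21, 15 and 0 reads, and in none of the 3 slow GMP libraries. The fast GMP mean of 5.70 ± 3.28 CPM (n = 5) lay near that of fast MEF, and their ranges overlapped. With 3 counts over the slow GMP group taken as the limit that no count allows, pooled Trim71 in fast GMP stood 17.4-fold above that limit. This ratio was 10.5-fold without slow GMP replicate 2 and 11.5-fold without replicate 1. It allows for counting error in slow GMP only, not for that in fast GMP or for the spread between libraries. The difference between the groups did not pass: its fitted log2 fold change, which depends on the prior count, was 6.92 ± 2.16 (unadjusted p = 0.00903, edgeR adjusted p = 0.662). In that comparison 0% of 10057 genes were called by edgeR, 742 had an unadjusted p under 0.05, and DESeq2 called 42. Trim71 was the sole one of the 4 genes with enough reads for this test. GMP markers reached 5181 to 25130 CPM in fast GMP and 9938 to 17690 CPM in slow GMP, and pluripotent markers 2.09 to 105.1 CPM in fast GMP, against 6.48 to 16.9 CPM in slow GMP. Their part in the Trim71 reads was not tested.

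L1td1 was, of the 4 genes, the one that fast MEF carried closest to the iPS level. The iPS libraries held 85.9, 140.2, 113 and 139.7 CPM (mean 120 ± 25.9 CPM, n = 4). The fast MEF libraries held 66.1, 74.4, 78.6 and 90.9 CPM (mean 77.5 ± 10.3 CPM, n = 4), and 1 of them lay above the lowest iPS library. Slow MEF libraries held 7, 20, 15 and 1 reads and bulk MEF libraries 0, 1, 12 and 0 reads, or at most 1.89 CPM and 1.22 CPM. No library of these groups came near any of fast MEF. L1td1 was higher in fast MEF than in slow MEF by 6.02 ± 0.69 on the log2 scale (edgeR adjusted p = 0.000188), and higher in fast MEF than in bulk MEF by 7.77 ± 1.0 (adjusted p = 0.000231). It was higher in iPS than in bulk MEF by 8.45 ± 1.03 (adjusted p = 0.000143). Against fast MEF, iPS was higher by 0.62 ± 0.24, which did not pass in edgeR (adjusted p = 0.0695). It did so without iPS replicate 1 (0.75, adjusted p = 0.0289), and DESeq2 called it with all libraries. The folds over bulk MEF rest on its replicate 3, without which they were 10.70 for fast MEF and 11.42 for iPS.

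**Figure D2:**
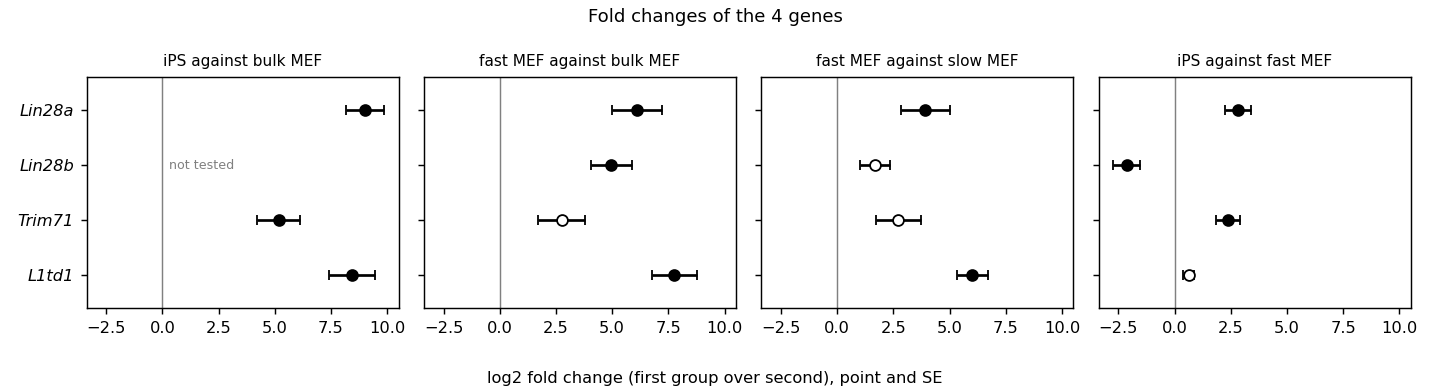
Log2 fold change of the 4 genes in 4 comparisons of edgeR, the first-named group over the second, with SE bars. Filled points passed an adjusted p of 0.05 and open points did not. L1td1 has 6.02 in fast MEF against slow MEF and 0.62 in iPS against fast MEF, and Lin28b alone lies below 0, at -2.13, in iPS against fast MEF.

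Lin28a, Trim71 and Nanog stood further below their iPS levels in fast MEF than L1td1 did. Fast MEF held 64.8% of the mean iPS level of L1td1, and 55.3%, 62.2%, 65.7% and 76.0% in the single libraries. The same share was 18.8% for Trim71, with libraries from 6.67% to 31.6%, and 14.2% for Lin28a, with libraries from 4.55% to 32.4%. Nanog, the core pluripotency factor, stood at 0.639 to 2.94 CPM in fast MEF, against 36.5 ± 1.88 CPM in iPS (SD, n = 4). The log2 ratio of L1td1 to Trim71 counts within a library averaged 3.81 in fast MEF and 1.84 in iPS, a difference of 1.97 (exact permutation test, two-sided, p = 0.0286, adjusted p = 0.0429). Here too p stood at the smallest value the test allows, and the ratio was chosen after the values had been seen. For L1td1 over Lin28a the averages were 2.83 in fast MEF and 0.33 in iPS, a difference of 2.50 that did not pass (exact p = 0.0571, adjusted p = 0.0685). The ratio of Lin28a to Trim71 averaged 0.98 in fast MEF and 1.51 in iPS (exact p = 0.657). Per kilobase, L1td1 was the most abundant of the 4 genes in both groups, at 40.7 CPM per kb in iPS and 26.4 CPM per kb in fast MEF.

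Among the 4 fast MEF libraries Lin28a and Trim71 did not vary together. L1td1 rose from replicate 1 (66.1 CPM) to replicate 4 (90.9 CPM), and Lin28b was highest in replicate 2 (9.60 CPM). Lin28a was highest in replicate 1 (32.0 CPM) and lowest in replicate 3 (4.50 CPM), while Trim71 was lowest in replicate 1 (2.27 CPM) and highest in replicate 3 (10.7 CPM). Pou5f1, whose counts join the induced and the endogenous gene, had 20.1, 33.8, 111.7 and 70.9 CPM in the same libraries. Lin28a thus ran in the reverse order of Pou5f1 and Trim71 in its order. Sox2 was likewise lower in replicates 1 and 2, at 200.2 and 213 CPM, than in replicates 3 and 4, at 392 and 373 CPM. Over 4 libraries this is a description and no relation was tested.

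**Figure D3:**
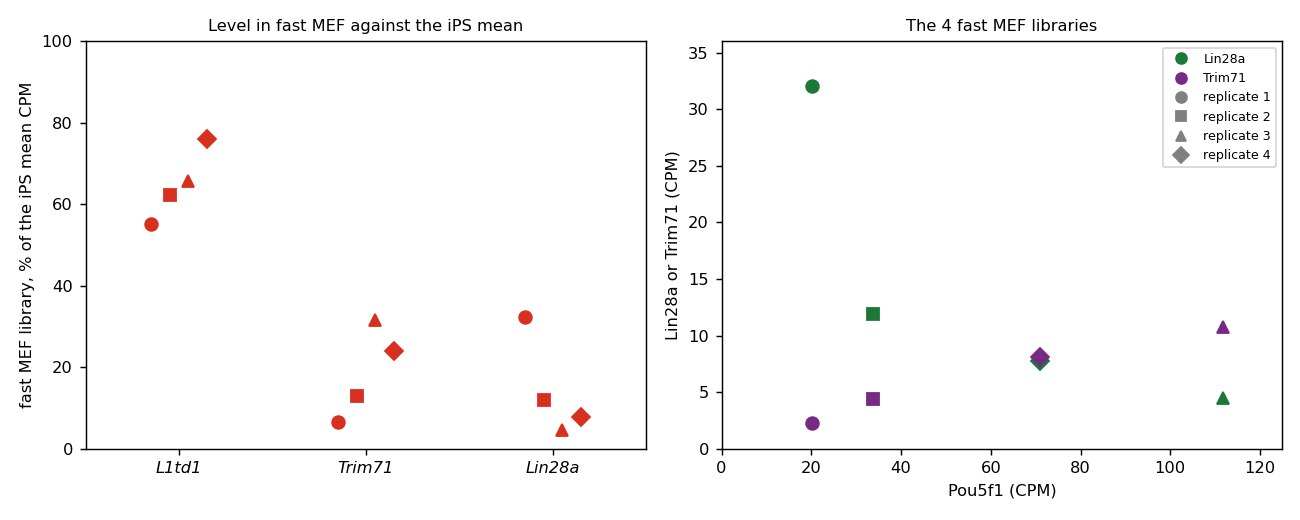
Left, the level of L1td1, Trim71 and Lin28a in each fast MEF library as a percentage of the iPS mean. Right, Lin28a and Trim71 (CPM) against Pou5f1 (CPM) in the same 4 libraries. L1td1 lies between 55.3% and 76.0%, and the libraries rank oppositely for Lin28a and Trim71.

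Slow MEF, exposed to the same induction as fast MEF, held at most 3.21 CPM of any of the 4 genes. None of the 4 genes had enough reads for the test of slow MEF against bulk MEF, in which 10.5% of 11253 genes were called in either direction. With no filter, Lin28b had the largest difference, 3.22 on the log2 scale in slow MEF over bulk MEF (unadjusted p = 0.0443, edgeR adjusted p = 0.208). Lin28a differed by 2.10 (adjusted p = 0.458), L1td1 by 1.67 (adjusted p = 0.521) and Trim71 by -0.04. All slow MEF libraries stood above all bulk MEF libraries for Lin28b, and the ranges of the other 3 genes overlapped. How often genes at large separate these groups as fully was not counted.

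Whether the gates differ in the same way in fibroblasts and blood progenitors was tested as an interaction, in which 1.4% of 13814 genes were called. L1td1 passed: its fast minus slow difference was greater in MEF than in GMP by 10.20 ± 1.44 on the log2 scale (edgeR adjusted p = 0.00516, at most 0.0217 with any 1 library left out). In GMP the order of the gates was turned, with 0, 1, 1, 0 and 0 reads of L1td1 in fast GMP, against 11, 11 and 4 reads in slow GMP. Those groups did not overlap, at levels of at most 3.95 CPM, and the difference within GMP did not pass (log2 -4.00 with no filter, unadjusted p = 0.0752, adjusted p = 0.502). With the filter, edgeR called 0% of 10057 genes between the GMP gates. The share of all genes that separate these libraries as fully was not counted. The interaction was 3.79 for Lin28a (adjusted p = 0.376), 3.80 for Lin28b (adjusted p = 0.290) and -5.54 for Trim71 (adjusted p = 0.233). For Lin28a its sign turned to -1.88 (adjusted p = 0.742) without slow GMP replicate 2, the one slow GMP library with reads. For Lin28b it was 0.13 (adjusted p = 1.0) without slow GMP replicate 3, which held 62 of the 66 slow GMP reads.

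Genes whose levels ran most like each of the 4 were listed by Pearson's correlation of log2 CPM over the 24 libraries, among 13501 genes. The libraries share groups and depth, so the values are descriptions. L1td1 had the closest companions: Ddc, the aromatic amino acid decarboxylase (r = 0.955), the kinase Rps6ka6 (0.947) and the surface antigen Gpa33 (0.932). Gpa33 averaged 95.9 CPM in iPS, against 66.3 CPM in fast MEF. Lin28a was followed by Fbp2, a fructose bisphosphatase (0.902) and the junctional adhesion molecule Jam2 (0.899), and L1td1 was its 46th gene (0.826). Trim71 ran with Ildr1 (0.834), Troap (0.823) and the ubiquitin ligase Huwe1 (0.819), and Troap had, like Trim71, no reads in slow GMP (17.2 CPM on average in fast GMP). For Lin28b the leading values were lower, at 0.771 for Nos1ap, 0.755 for the chloride channel protein Clic3 and 0.745 for Lmx1a. Clic3 averaged 0.305 CPM in iPS, against 45.4 CPM in fast MEF. The other 3 members were far down the list of Lin28b, with Lin28a at 0.252 and Trim71 at 0.117.

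Of 11 genes of microRNA processing, 6 rose and none fell in fast MEF over slow MEF, where 14.4% of all genes rose and 17.3% fell. Their median log2 fold change was 0.99, against -0.11 over all genes. Dicer1, which cuts the precursor, averaged 67.1 ± 14.8 CPM in the fast gate and 23.02 ± 12.3 CPM in the slow gate (SD, n = 4 each). It rose by 1.54 ± 0.41 on the log2 scale (edgeR adjusted p = 0.0169). Its partner Tarbp2 rose by 1.37 ± 0.35 (adjusted p = 0.0129). Hnrnpa1, a binder of primary microRNAs, rose by 2.21 ± 0.61 (adjusted p = 0.0185), and its call was lost without fast MEF replicate 2 (adjusted p = 0.0749). In iPS over bulk MEF 6 of the 11 rose and 1 fell, where 24.1% of all genes rose and 23.3% fell. The nuclear exporter Xpo5 rose by 2.01 ± 0.51, Tarbp2 by 1.78 ± 0.28 and Drosha, the nuclear microRNA nuclease, by 1.61 ± 0.36, all past the threshold.

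The enzymes that tail and degrade the Lin28-held precursor were, with 1 exception, not called. The list of 6 genes held Zcchc11, Zcchc6 and Dis3l2, and also Mtpap, Papd4 and Papd5, which are not named above for this step. None of the 6 was called in fast MEF against slow MEF (median 0.11), in fast MEF against bulk MEF or in iPS against fast MEF. In iPS over bulk MEF, Zcchc11 alone rose, at 36.9 ± 6.99 CPM in iPS and 10.4 ± 3.55 CPM in bulk MEF (SD, n = 4 each; log2 1.82 ± 0.38 SE, edgeR adjusted p = 0.00288). Among 10 Argonaute, GW182 and deadenylase genes, 3 rose and none fell in fast MEF over slow MEF, beside 14.4% and 17.3% of all genes. They were the Argonaute Eif2c1 (Ago1), by 1.89 ± 0.38, the scaffold Cnot1, by 1.08 ± 0.25, and Eif2c2 (Ago2), by 0.77 ± 0.22, whose call was lost with 1 library left out (highest adjusted p = 0.0627). Eif2c1 was then lower in iPS than in fast MEF by 1.44 ± 0.30 (log2 fold change -1.44, adjusted p = 0.00412).

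mRNAs reported to be let-7 targets were called in both directions, in iPS over bulk MEF about as often as all genes. Of 34 listed, 32 were tested in fast MEF against slow MEF, and 11 rose and 9 fell, where 14.4% of all genes rose and 17.3% fell. Their median was -0.06 against -0.11 over all genes. In iPS over bulk MEF 8 of 31 rose and 8 fell, beside 24.1% and 23.3% of all genes, with a median of -0.63 against 0.10 over all genes. In iPS over fast MEF 7 of 31 rose and 12 fell, beside 18.8% and 19.7% of all genes, with a median of -1.08. The 7-base let-7 motif stood in the reference 3′ UTR of 24 of the 34. In fast MEF over slow MEF, 9 rose and 6 fell of 23 with it (median 0.64), and 2 rose and 3 fell of 9 without it (median -0.40). In iPS over bulk MEF, 5 rose and 6 fell of 22 with it (median -0.75), and 3 rose and 2 fell of 9 without it (median -0.41). In fast MEF over bulk MEF, 1 rose and 6 fell of 23 with it, and 4 rose and 2 fell of 8 without it. The medians there were -0.25 with the motif and 1.07 without it. They were -0.89 and -1.72 in iPS over fast MEF, and -0.495 and -0.346 in slow MEF over bulk MEF. This split was made after values were seen, and its difference was not tested. In iPS over bulk MEF, Dusp9 (5.93 ± 0.69), Arid3b (5.36 ± 0.86) and Mycn (5.02 ± 0.96) had the highest values with all libraries. Without bulk MEF replicate 3 these were 6.76, 6.43 and 7.08, in another order. The collagens Col3a1 (-7.21 ± 0.81, or -7.87 without iPS replicate 1) and Col1a2 (-6.99 ± 0.57), which are also fibroblast markers, fell most. In fast MEF over slow MEF the list was led by Myc (3.54 ± 0.26), itself an induced factor, the chromatin protein Hmga1 (3.21 ± 0.53) and the cyclin Ccnd1 (2.62 ± 0.30). Col3a1 fell by 5.27 ± 0.45.

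A pair of classical let-7 targets, Hmga2 and Igf2bp1, was called in opposite directions in iPS over bulk MEF and is named here after its values were seen. Each carried 4 let-7 motifs in its reference 3′ UTR. Hmga2, a chromatin protein of embryonic cells, averaged 12.4 ± 2.24 CPM in iPS, 26.5 ± 12.1 CPM in fast MEF, 44.1 ± 16.3 CPM in slow MEF and 254.5 ± 35.8 CPM in bulk MEF (SD, n = 4 each). Of these 4 groups Hmga2 was lowest in iPS, which held the most Lin28a, and a link between Hmga2 and Lin28a was not tested. Hmga2 fell in iPS over bulk MEF by 4.35 ± 0.28 on the log2 scale (edgeR adjusted p = 5.48e-06), in fast MEF over bulk MEF by 3.33 ± 0.36 (adjusted p = 7.46e-05) and in slow MEF over bulk MEF by 2.48 ± 0.33 (adjusted p = 0.00126). Igf2bp1, an mRNA-binding protein of fetal tissues, averaged 577 ± 71.9 CPM in iPS, 109 ± 12.9 CPM in fast MEF, 17.5 ± 9.83 CPM in slow MEF and 69.8 ± 24.3 CPM in bulk MEF. It rose in iPS over bulk MEF by 3.04 ± 0.31 (adjusted p = 5.23e-05) and in fast MEF over slow MEF by 2.51 ± 0.45 (adjusted p = 0.00233), where Hmga2 was at -0.86 ± 0.43 and did not pass (adjusted p = 0.155). In fast MEF over bulk MEF, Igf2bp1 was at 0.58 ± 0.30 and did not pass (adjusted p = 0.165). In slow MEF over bulk MEF it fell by 1.95 ± 0.50 (adjusted p = 0.0291), a call lost when any 1 of 5 libraries was left out.

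**Figure D4:**
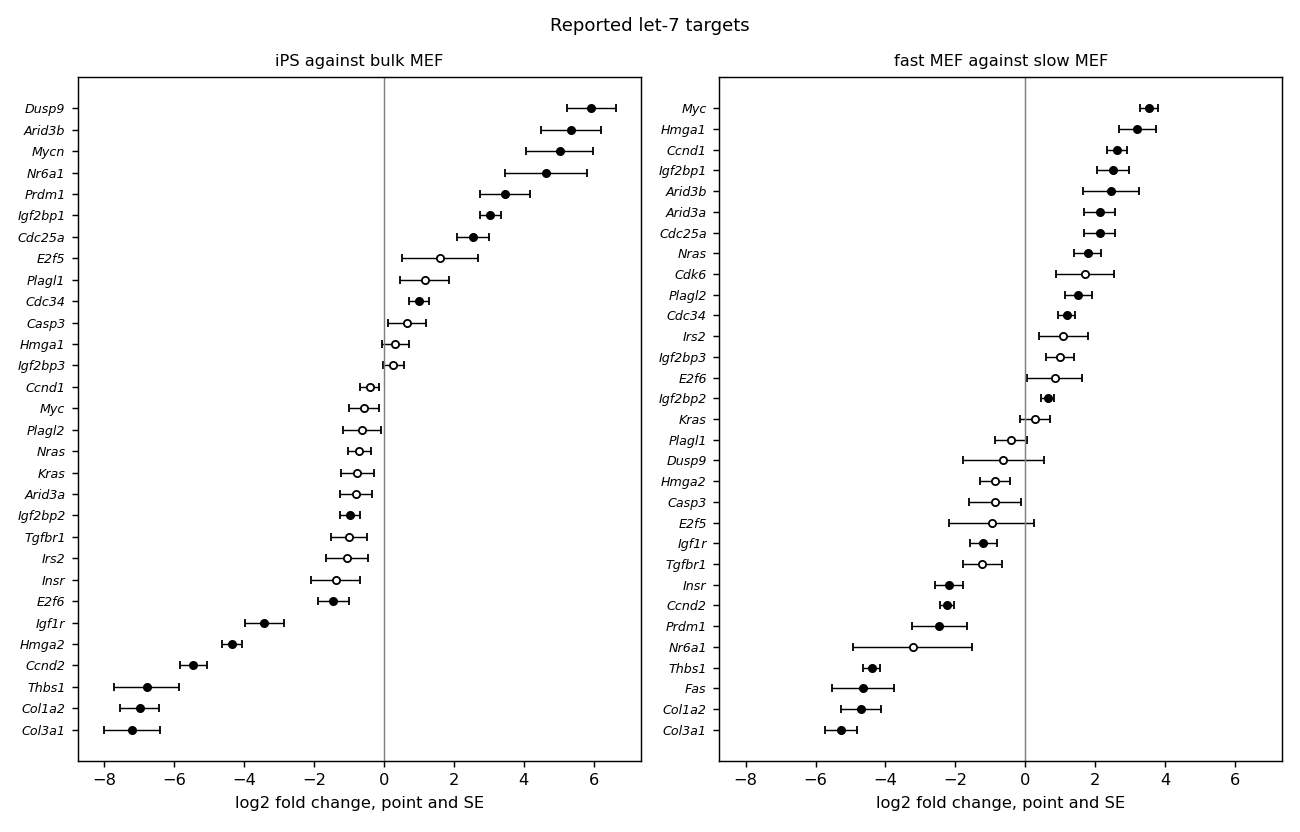
Log2 fold changes with SE of members of the list of reported let-7 targets, iPS over bulk MEF on the left and fast MEF over slow MEF on the right. Filled points passed an adjusted p of 0.05 in edgeR. Members lie on both sides of 0 in each panel, with Dusp9 at 5.93 and Col3a1 at -7.21 at the ends on the left.

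Of 8 mRNAs reported to be silenced by Trim71, 7 were tested in iPS against bulk MEF. There 4 fell and 1 rose, beside 23.3% and 24.1% of all genes, with a median of -2.004 against 0.10 over all genes. Cdkn1a, the cell cycle inhibitor p21, was at 190.1 ± 13.9 CPM in iPS and 4330 ± 835 CPM in bulk MEF (SD, n = 4 each; log2 -4.51 ± 0.21 SE, edgeR adjusted p = 1.74e-06). The transcription factor Egr1 fell by 4.72 ± 0.33 and the splicing regulator Mbnl1 by 3.94 ± 0.57, both past the threshold. Rbl1, a retinoblastoma relative, went the other way and rose by 2.48 ± 0.56 (adjusted p = 0.0046). In iPS over fast MEF 5 of 7 fell and none rose, beside 19.7% and 18.8% of all genes, with Cdkn1a lower by 3.38 ± 0.20 (log2 fold change -3.38). In fast MEF over slow MEF 2 of 8 rose and 2 fell, beside 14.4% and 17.3% of all genes. There E2f7 rose by 3.07 ± 0.74, Cdkn1a fell by 0.98 ± 0.22, and Egr1 fell by 0.78 ± 0.22, a call lost with 1 library left out (highest adjusted p = 0.0612). In fast MEF over bulk MEF 1 of 7 rose and 1 fell, beside 16.5% and 18.4% of all genes. A link between Trim71 and the levels of these mRNAs was not tested.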

How the data were processed

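The values are raw counts, not normalized, that the authors deposited for 24 libraries and 23283 gene symbols, 1708 of them with no count. CASAVA 1.8.2, TopHat2 2.0.4, HTSeq and the build mm9 are named, per the submitters' processing notes. Their settings, the annotation and the use of strand are, in the sources used here, not given, so reads of overlapping or antisense genes cannot be told apart. Each of 37 pairs of replicates differed by more than sampling noise.

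Each comparison used edgeR 4.0.16 in R 4.3.3 (quasi-likelihood F test, robust, TMM factors, filterByExpr) on the groups compared alone, with Benjamini-Hochberg adjustment over all genes tested and a two-sided threshold of 0.05. SE came from the F statistic. CPM of the 4 genes, of markers and of Hmga2 and Igf2bp1 used TMM factors over all 24 libraries, and other CPM beside a fold change those of the comparison. Ratios within a library (pseudocount 0.5) were compared by exact permutation with scipy 1.17.1. The scripts were tested on simulated data.

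The 4 genes and 15 lists (177 entries, 175 in the file) were chosen with earlier results of these data known. Of each list up to 3 called genes with the largest change in the leading direction and 2 in the other were open to naming, and others are said to be chosen after their values were seen. Some genes that this rule names are not reported here. Alternatives were DESeq2 1.42.0 or its size factors, no filter or one of 5 CPM, all libraries in 1 fit, replicate number as block, no Rn45s and Lars2, CPM without TMM factors, and each library left out.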

Additional observations from a re-analysis of the deposited data

Results flagged for a closer look

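Of 20 groups of 4 or 5 libraries in which a gene of the 4 was screened for a library apart from the rest, 3 held one. The cut-off flags about 1 in 20 groups of normally distributed values. Counts this low need not be so distributed, so the 3 of 20 cannot be set against chance. Trim71 in bulk MEF replicate 2 stood at 3.09 CPM, and the next bulk MEF library at 0.304 CPM. L1td1 in bulk MEF replicate 3 stood at 1.22 CPM, and the next at 0.0935 CPM. These are different libraries. Trim71 in fast GMP replicate 5 stood at 0 CPM, and the nearest of the other fast GMP libraries at 6.26 CPM. Replicate 5 had counts in 9380 genes, the fewest of all libraries, and the part of this in its Trim71 count was not tested. The fast minus slow difference of L1td1 was greater in MEF than in GMP by 10.20 on the log2 scale (edgeR interaction, adjusted p = 0.00516), with L1td1 higher in all 4 fast MEF libraries than in all 4 slow MEF libraries and lower in all 5 fast GMP libraries than in all 3 slow GMP libraries. The difference within GMP did not pass (edgeR with no filter, adjusted p = 0.502). The share of all genes that separate the GMP libraries as fully was not counted.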

How the results depend on the processing

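Leaving out 1 library at a time kept 184 of 192 results for the 4 genes on the same side of the threshold and in the same direction, and the other alternatives 121 of 133; the cause of the changes was not tested. Log2 values with 1 library left out ranged in fast over slow MEF from 3.12 to 5.19 for Lin28a and 1.40 to 2.16 for Lin28b, in fast over bulk MEF from 2.38 to 4.83 for Trim71, in iPS over fast MEF from -2.38 to -1.83 for Lin28b and 0.53 to 0.75 for L1td1, and in the interaction from -1.88 to 5.62 for Lin28a and 0.13 to 4.41 for Lin28b. Genes called ranged from 759 to 998 (1181 with all libraries) in slow over bulk MEF and from 82 to 575 (193) in the interaction, 575 without fast GMP replicate 1.

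DESeq2 called more: Lin28b (1.77) and Trim71 (2.81) in fast over slow MEF, Trim71 (2.83) in fast over bulk MEF, L1td1 (0.67) in iPS over fast MEF, and 2436 genes in slow over bulk MEF, 42 in GMP and 1549 in the interaction, of which 34.0% were higher against 43.0% with edgeR. With all 24 libraries in 1 fit, which shares 1 spread with the noisier GMP, 1246 genes were called in fast over slow MEF, 3170 in iPS over bulk MEF, 1513 in fast over bulk MEF, 56 in slow over bulk MEF (67.9% higher, against 52.5%), 1675 in iPS over fast MEF, 385 in GMP and 1069 in the interaction. In that fit calls were lost for Lin28a in fast over slow MEF (4.05, adjusted p = 0.0585) and for Lin28a (2.81), Lin28b (-2.14) and Trim71 (2.41) in iPS over fast MEF, and Trim71 passed in GMP (8.54, adjusted p = 0.0422). With no filter Lin28b in iPS over fast MEF was -2.12 (adjusted p = 0.0526). DESeq2 size factors moved the median of all genes in the interaction from -0.33 to -0.48. Without TMM factors mean L1td1 in fast MEF was 96.8 CPM.

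Same-numbered replicates did not deviate together (correlations of -0.0563 to 0.0836). No label states whether the numbers pair the libraries. The correlations cannot decide it, because replicates differed by more than sampling noise. With the replicate block, Trim71 passed in fast over bulk MEF (3.67, adjusted p = 0.0448), Lin28b in iPS over fast MEF did not (-2.15, adjusted p = 0.0652), 92 genes were called in the interaction, and no other call of the 4 genes changed. Groups with few reads limit the folds over bulk MEF and all values in GMP.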

Other observations

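Of 30 listed RNA-binding proteins known from pluripotent or germ cells, 22 were tested in fast MEF against slow MEF. There 5 rose and 3 fell, shares near those of all genes (14.4% higher and 17.3% lower), with a median log2 fold change of -0.28 against -0.11 over all genes. The epithelial splicing regulators Esrp1, with 32.7 ± 7.32 CPM in the fast and 0.407 ± 0.813 CPM in the slow gate, and Esrp2, with 78.1 ± 9.26 CPM in the fast and 1.91 ± 1.75 CPM in the slow gate (SD, n = 4 per gate), rose most, by 6.17 ± 1.2 and 5.33 ± 0.85 on the log2 scale (edgeR adjusted p = 0.00347 and 0.00115). Without slow MEF replicate 2 Esrp1 differed by 11.09. Rif1, a regulator of replication timing, rose by 3.55 ± 0.34, while Rbpms2 (-5.16 ± 0.75) and Msi1 (-4.39 ± 0.78) fell. In iPS against bulk MEF, 14 of 27 rose and 4 fell, beside 24.1% and 23.3% of all genes (median 1.41, against 0.10). Among them were Dppa5a (8.91 ± 1.10, or 9.82 without bulk MEF replicate 3) and Nanos3 (7.92 ± 1.31, or 6.76 without iPS replicate 1 and 8.83 without bulk MEF replicate 1). Esrp2 was lower in iPS than in fast MEF by 4.62 ± 0.41 (log2 fold change -4.62, adjusted p = 3.95e-05), as were epithelial markers, summed at 133 to 216 CPM in iPS and 8719 to 14150 CPM in fast MEF.

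Of 10 genes in the file that restrict or silence retroelements, the source of the L1td1 sequence, 8 were tested in fast MEF against slow MEF. There 3 rose and 1 fell, beside 14.4% and 17.3% of all genes (median 1.03, against -0.11). Mov10, an RNA helicase that restricts LINE-1, averaged 174 ± 68.1 CPM in the fast and 24.6 ± 14.3 CPM in the slow gate (SD, n = 4 per gate), a rise of 2.83 ± 0.45 on the log2 scale (edgeR adjusted p = 0.00115). The corepressor Trim28 rose by 1.33 ± 0.32 and Zcchc3 fell by 2.53 ± 0.60. In iPS against bulk MEF 7 of 10 rose and none fell, beside 24.1% and 23.3% of all genes (median 2.03, against 0.10), with Dnmt3l, the cofactor of DNA methylation, at 278 ± 71.9 CPM in iPS and 0.787 ± 1.10 CPM in bulk MEF. Dnmt3l was higher in iPS than in fast MEF by 12.78 ± 0.65 on the log2 scale (adjusted p = 2.37e-06, or 14.61 on the log2 scale without fast MEF replicate 3, the one fast MEF library with any read), at 311 ± 82.4 CPM in iPS and 0.0578 ± 0.116 CPM in fast MEF.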
